A study of Mus musculus with 4 samples.

Results

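The regions described here are the ATAC-seq peaks at 10 genes of the transforming growth factor beta (TGF-beta) pathway in the mouse heart. They comprise the ligand genes Tgfb1, Tgfb2 and Tgfb3, the latent-ligand binding protein gene Ltbp1, the receptor genes Tgfbr1, Tgfbr2 and Tgfbr3, and the intracellular effector and inhibitor genes Smad3, Smad7 and Skil. A peak was a member when it overlapped one of these genes or lay within 20 kb of either end, which gave 170 of the 87948 peaks in the deposited table. ATAC-seq cuts open chromatin with a transposase, so the read count in a peak measures how accessible that stretch of DNA was. Both groups were hearts at postnatal day 14, 2 libraries from wild-type mice and 2 from Carm1 mutant mice. Carm1 encodes an enzyme that methylates arginines of histones and of other proteins in transcription. The labels gave neither the mutant allele, nor the strain, nor the cells in which the gene was altered, nor whether a library came from 1 heart or several, so the p-values measure the spread between these libraries. The tissue was labelled heart with no cell type, and all 9 cardiomyocyte marker genes listed (among them Myh6, Tnnt2 and Ryr2) had peaks, 282 in all. So had all listed endothelial (10), fibroblast (10), mural (8) and Schwann cell (5) genes and 7 of 9 leukocyte genes. Having a peak therefore names no cell type. Counts in peaks summed to 15945420 to 19091969 per library. As a check for a library deposited more than once, counts were compared between the libraries of 1 genotype (chi-square of 4.09 per degree of freedom for the wild type, 5.76 for the mutant), and each library was counted as 1 replicate. No genome sequence or exon map was used, so a peak is placed in a gene or beside it and not in an exon, an intron or a UTR.

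TGF-beta ligands are secreted in a latent form, bound through LTBP proteins to the extracellular matrix. Once released, a ligand binds the type II receptor TGFBR2, which phosphorylates the type I receptor TGFBR1, and TGFBR3 (betaglycan) presents the ligand as a coreceptor. The active receptor phosphorylates SMAD2 and SMAD3, which enter the nucleus with SMAD4. SMAD7 blocks the receptor and SKIL (SnoN) represses SMAD target genes, and both genes are themselves induced by the pathway. In the heart the pathway is known for its part in valve formation, in the activation of fibroblasts and in the deposition of matrix.

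The start regions of these genes were open in every library, and none of their differences between the genotypes passed the test. RefSeq promoters (GRCm38.p6, the same assembly as mm10, from 250 bases before to 50 after each start) were found for 6 of the 10 genes, with 8 starts in all. Tgfb3, Tgfbr3, Smad7 and Skil had no entry. A total of 4 promoters are shown because they belong to the genes with 2 called peaks away from the start, Ltbp1 and Tgfbr2, and to the one gene whose promoter held a TATA box, Tgfb2. Capitals mark matches, on either strand, to CAGAC (the SMAD box), CCAAT and TATAAA, so that a match on the other strand reads GTCTG or ATTGG.
Tgfb2, chr1:186705940-186706239, minus strand: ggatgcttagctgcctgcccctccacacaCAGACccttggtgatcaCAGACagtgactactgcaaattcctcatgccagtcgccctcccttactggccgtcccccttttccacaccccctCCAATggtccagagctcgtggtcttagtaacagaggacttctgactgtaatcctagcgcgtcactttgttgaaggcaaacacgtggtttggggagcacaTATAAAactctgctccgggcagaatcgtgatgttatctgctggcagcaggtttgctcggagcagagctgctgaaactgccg
Tgfbr2, chr9:116175314-116175613, minus strand: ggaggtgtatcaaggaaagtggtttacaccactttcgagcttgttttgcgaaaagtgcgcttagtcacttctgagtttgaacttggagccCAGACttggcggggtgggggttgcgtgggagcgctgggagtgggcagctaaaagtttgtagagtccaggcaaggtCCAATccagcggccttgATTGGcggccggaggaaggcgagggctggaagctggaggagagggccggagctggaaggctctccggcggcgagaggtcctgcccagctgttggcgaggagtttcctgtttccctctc
Ltbp1 first start, chr17:75005279-75005578, plus strand: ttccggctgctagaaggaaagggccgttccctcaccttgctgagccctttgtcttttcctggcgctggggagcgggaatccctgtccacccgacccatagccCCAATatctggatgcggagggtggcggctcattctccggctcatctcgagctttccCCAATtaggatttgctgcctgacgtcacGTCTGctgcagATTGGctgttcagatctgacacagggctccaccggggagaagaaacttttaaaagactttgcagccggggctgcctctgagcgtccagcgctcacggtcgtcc
Ltbp1 second start, chr17:75178531-75178830, plus strand: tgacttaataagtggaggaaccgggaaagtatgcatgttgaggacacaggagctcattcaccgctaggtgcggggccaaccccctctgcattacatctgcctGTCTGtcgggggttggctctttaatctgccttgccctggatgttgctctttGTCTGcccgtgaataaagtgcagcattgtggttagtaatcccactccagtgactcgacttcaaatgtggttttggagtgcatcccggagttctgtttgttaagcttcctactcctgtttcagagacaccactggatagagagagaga
All 8 promoters were searched on both strands for 6 motifs, and no motif contains another. The GC box GGGCGG occurred in 3 of the 8 (those of Tgfb1, Smad3 and the first start of Tgfbr1), against 35.6% of all 32817 listed promoters. CCAAT occurred in 5 of 8 against 37.4%, and TATAAA in 1 of 8, at Tgfb2, against 13.6%. The Tgfb2 TATA box began at position -31 from the listed start. CAGAC occurred in 5 of 8, the Tgfb2 promoter and the second Ltbp1 promoter holding 2 each, against 49.6%. The SMAD palindrome GTCTAGAC (0.213% of all promoters) and the AP-1 element TGANTCA (7.81%) had no match in these windows. The GC content was 77% at Tgfb1 and 74.7% at the first start of Tgfbr1, above the 90th percentile of all listed promoters (69.7%). It was 50% at the second Ltbp1 start, near the median of 52.7%. A match is a description of the letters only.

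The strongest peak within 1 kb of a listed start was taken as each gene's start peak; for Tgfb3, Tgfbr3, Smad7 and Skil, whose strand was not listed, it was the strongest peak within 1 kb of either gene end. Values are CPM, the read count scaled by the library size. The Smad7 start peak (chromosome 18, 75366179 to 75368400) had 73.0 and 72.3 CPM in wild-type libraries 1 and 2 and 83.8 and 64.1 in mutant libraries 1 and 2. The mutant libraries lay on both sides of the wild-type pair, and the log2 fold change, mutant over wild type, was 0.03 (SE 0.14, adjusted p = 0.942 in edgeR). The Smad3 start peak (chromosome 9, 63756547 to 63759487) had 63.3 and 53.6 CPM in the wild type and 57.4 and 52.3 in the mutant. The Skil start peak (chromosome 3, 31093071 to 31096237) had 52.1 and 56.6 against 62.8 and 47.8 CPM. In all 10 start peaks the values of the genotypes overlapped, and the strongest 3 belonged to these intracellular regulators. The Tgfbr2 start peak (chromosome 9, 116174220 to 116175680) had 24.1 and 23.2 CPM in the wild type and 25.7 and 22.0 in the mutant, a log2 fold change of 0.01 (95% interval -0.34 to 0.37). The Tgfb2 start peak (chromosome 1, 186705060 to 186706288) had 19.6 and 18.9 CPM in the wild type and 19.7 and 18.6 in the mutant, a log2 fold change of -0.01 (95% interval -0.38 to 0.36). Both of these start peaks varied little across the 4 libraries. That of Ltbp1 (chromosome 17, 75004889 to 75006680) had 39.2 and 37.5 against 37.5 and 30.7 CPM, the lowest log2 fold change of the 10 at -0.17 (95% interval -0.49 to 0.15). The highest was that of Tgfb1 (chromosome 7, 25687040 to 25689990), at 44.4 and 38.2 against 48.8 and 41.3 CPM and a log2 fold change of 0.13 (95% interval -0.19 to 0.44). No start peak passed an adjusted p of 0.05 or an unadjusted p of 0.05 with edgeR, and none passed with DESeq2, with limma voom or with any 1 library left out. Of all 14282 peaks within 1 kb of a listed start, 1.83% were called. The median size of the log2 fold change was 0.03 over the 10, against 0.16 over those 14282 peaks. The 10 were also stronger, with a median of 39.7 CPM against 18.3 CPM. Over all peaks that size fell with strength, from 0.56 under 2.5 CPM to 0.14 at 20 CPM or more.

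**Figure D1:**
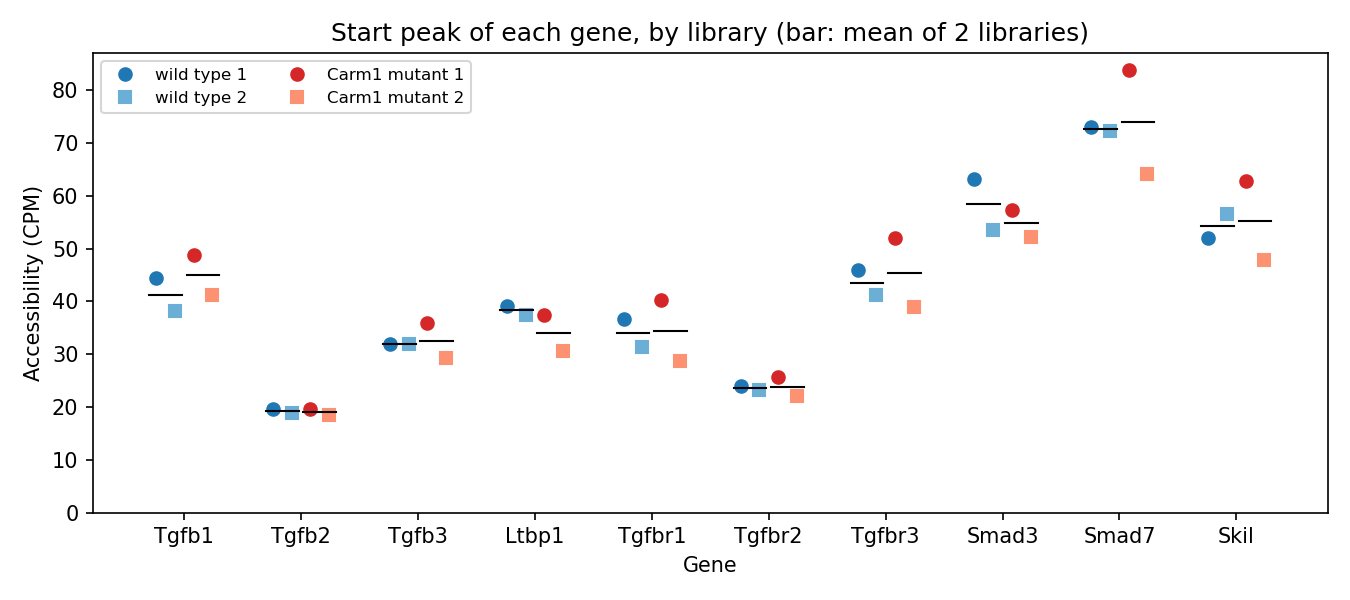
Accessibility in CPM (vertical axis) of the start peak of each of the 10 genes in the 2 wild-type (blue) and 2 Carm1 mutant (red) libraries; black bars are the means of the 2 libraries. The genotypes overlap at every gene, and Smad7, Smad3 and Skil have the highest values in the wild type, while Tgfb2 and Tgfbr2 have the lowest.

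Per kilobase of peak, the level ran from 14.6 CPM per kb at Tgfb1 to 33.0 at Smad7, with 26.2 at Tgfbr3 and 22.3 at Tgfb3. These levels are densities and depend on how wide each peak was called. Mutant library 1 lay above mutant library 2 at all 10 start peaks, and wild-type library 1 lay above wild-type library 2 at 9 of the 10. Mutant library 2 was the lowest of the 4 libraries at 9 of the 10. Peaks within 1 kb of any listed start held 37.0% and 37.1% of the counts in the wild-type libraries, 37.5% in mutant library 1 and 36.0% in mutant library 2. The part of that share in the order of the libraries was not tested. The start peak held 77.3% of the window's accessibility at Tgfbr1 and 78.0% at Skil, each with 4 peaks. It held 10.8% at Tgfbr3, whose gene of 183.1 kb carried 41 peaks. The second Ltbp1 start lay under a weaker peak, at 5.32 and 7.79 CPM in the wild type and 7.72 and 10.1 in the mutant (log2 fold change 0.44, adjusted p = 0.348 in edgeR). The second listed start of Tgfbr1 lay under no peak of the table.

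Away from the starts, 6 of the 170 peaks differed between the genotypes, 2 higher and 4 lower in the mutant. A peak was called at a Benjamini-Hochberg adjusted p under 0.05 in edgeR's quasi-likelihood test, adjusted over all peaks. Of all peaks 5.5% were called, 3.05% higher and 2.45% lower, against 3.53% of these 170. The median log2 fold change was -0.05, against 0 over all peaks. Both mutant libraries lay above both wild-type libraries in 28 peaks (16.5%, against 25.8% of all peaks) and below them in 41 (24.1%, against 25.7%). At a threshold of 0.1, 14 peaks were called, against 10.2% of all peaks. The 6 calls lay at Ltbp1 and Tgfbr2, with 2 each, at Tgfbr3 and on the flank of Tgfb3. Tgfb1, Tgfb2, Tgfbr1, Smad3, Smad7 and Skil had none. Leaving out a single library changed the count, and the share called over all peaks changed in the same direction. Both were smaller when a wild-type library was dropped and larger when a mutant library was dropped. The median log2 fold change of the 170 peaks then ran from -0.05 to -0.02. DESeq2 and limma voom called 3 each, the 2 higher peaks and the stronger Tgfbr2 peak. Of all peaks they called 2.7% and 4.21%.

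**Figure D2:**
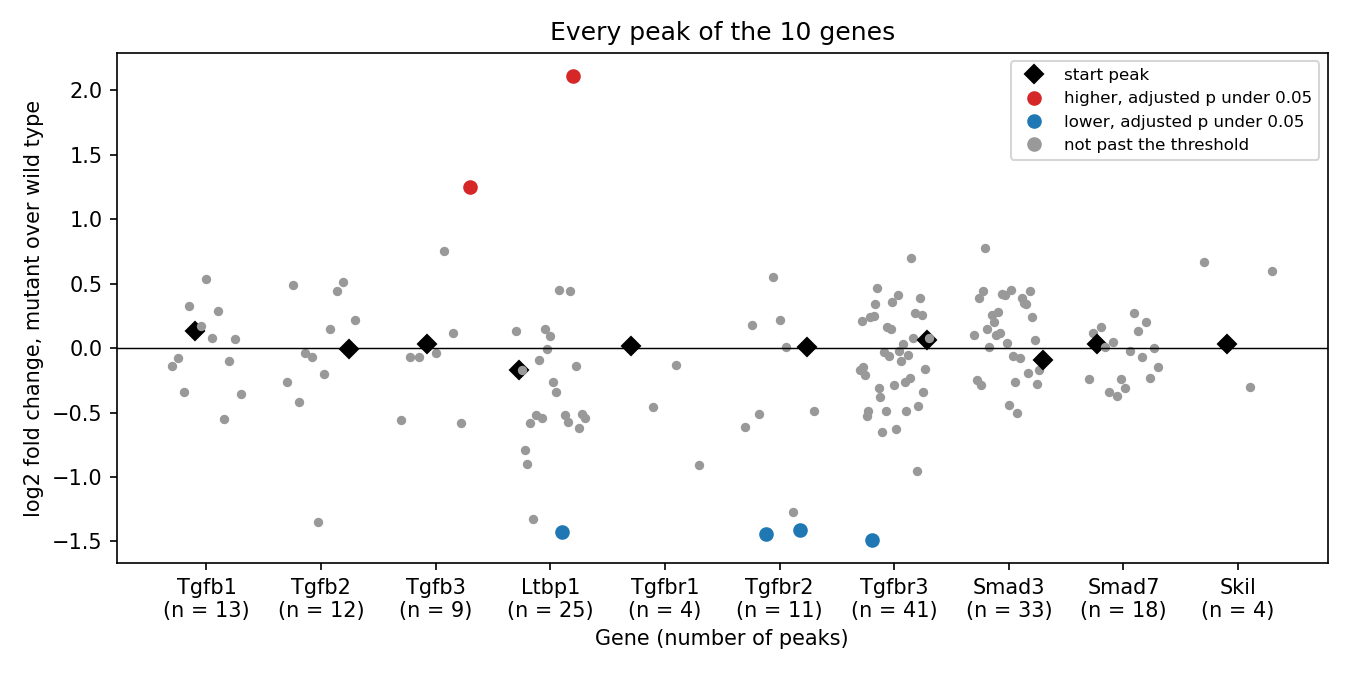
Log2 fold change, mutant over wild type (vertical axis), of each of the 170 peaks, grouped by gene; diamonds are start peaks, red and blue circles the 2 higher and 4 lower peaks past the threshold, grey circles the other peaks. The start peaks sit between -0.17 and 0.13, and the called peaks lie at 1.25 and 2.11 above 0 and from -1.49 to -1.41 below it.

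The 3 ligand genes had no called peak inside the gene, and the only call lay beside Tgfb3. For Tgfb1 and Tgfb2 together 0 of 25 peaks passed in edgeR, DESeq2 and limma voom, and 3 passed an unadjusted p of 0.05 in edgeR. Over all peaks these shares were 5.5% called in edgeR and 21.8% at the unadjusted p, and 1 of the 25 was called without mutant library 1 and 1 without mutant library 2. In Tgfb1, which encodes the most widely expressed ligand, 13 peaks had log2 fold changes from -0.55 to 0.54. The gene lies in a dense stretch, and 7 of its 13 peaks overlapped a neighbouring protein-coding gene (Tmem91, B9d2 or Ccdc97). The Tgfb1 peak with the smallest p, 768 bp beyond the gene (chromosome 7, 25705845 to 25706312), had 7.41 and 5.99 CPM in the wild type and 10.8 and 8.71 in the mutant. The groups did not overlap, but the difference did not pass (log2 fold change 0.54, SE 0.25, adjusted p = 0.204 in edgeR). In Tgfb2, a ligand gene needed for outflow tract and valve development, 12 peaks had log2 fold changes from -1.35 to 0.51. The lowest was a weak peak in the gene (chromosome 1, 186653295 to 186653560), with 2.72 and 2.06 CPM in the wild type and 0.791 and 1.07 in the mutant. Both mutant libraries were lower, and the call missed the threshold (log2 fold change -1.35, SE 0.42, adjusted p = 0.0652 in edgeR). Set against the other peaks of Tgfb2, it passed (relative log2 change -1.53, edgeR diffSpliceDGE adjusted p = 0.0283). On its own it also missed the threshold with DESeq2 (adjusted p = 0.259) and limma voom (0.11). With a library left out its log2 fold change ran from -1.58 to -1.14. Its mean was 1.66 CPM, and among all peaks under 2.5 CPM the median log2 fold change was -0.32. The part of that level in its lower value was not tested. Beyond the far end of Tgfb2 a stronger peak, 11757 bp away (186609591 to 186611030), had 23.3 and 28.2 CPM against 34.8 and 37.4 (log2 fold change 0.49, adjusted p = 0.0799 in edgeR).

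On the flank of Tgfb3, which encodes another of the ligands, a peak was higher in the mutant. It lay 12157 bp from the gene and inside the neighbouring gene Ift43, which encodes an intraflagellar transport protein (chromosome 12, 86091198 to 86092305). It had 7.58 and 11.9 CPM in wild-type libraries 1 and 2 and 25.1 and 21.1 in mutant libraries 1 and 2. Both mutant libraries lay above both wild-type libraries by a wide gap, from 9.73 ± 3.03 to 23.1 ± 2.82 CPM (SD, n = 2 each), and the log2 fold change was 1.25 (SE 0.22, adjusted p = 0.00315 in edgeR). Without wild-type library 1 the log2 fold change was 0.97 and the call was lost (adjusted p = 0.0558 in edgeR). The peak differed from the other Tgfb3 peaks (relative log2 change 1.15, edgeR diffSpliceDGE adjusted p = 0.000637), a test in which 2.6% of peaks passed over all genes. A peak next to it in the direction of Tgfb3, also in Ift43 (86087891 to 86088484), went the other way without passing, at 16.5 and 17.1 CPM against 11.6 and 10.9 (log2 fold change -0.58, adjusted p = 0.0924 in edgeR). The Tgfb3 start peak had 32.0 and 31.9 against 35.9 and 29.2 CPM. The remaining Tgfb3 peaks had log2 fold changes from -0.56 to 0.75.

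Ltbp1 encodes the protein that ties latent TGF-beta to the matrix, and its 25 peaks over 387.0 kb included both a higher and a lower call. The higher peak lay deep in the gene (chromosome 17, 75255989 to 75256305), 77208 bp beyond the second listed start. It had 1.25 and 1.08 CPM in the wild type (22 and 21 reads) and 3.83 and 6.25 CPM in the mutant (63 and 99 reads). The mutant values were the higher in both libraries, with a log2 fold change of 2.11 (SE 0.38, 95% interval 1.32 to 2.89, adjusted p = 0.00369 in edgeR). This call passed with every library left out in turn (edgeR adjusted p from 1.31e-06 to 0.0273), with DESeq2 (0.00251) and with limma voom (0.0103). It also differed from the other Ltbp1 peaks (relative log2 change 2.29, edgeR diffSpliceDGE adjusted p = 0.000238). The lower peak (75119419 to 75119831) had 3.11 and 4.08 CPM in the wild type and 1.10 and 1.58 in the mutant, a log2 fold change of -1.43 (SE 0.38, adjusted p = 0.0339 in edgeR). That call was lost without wild-type library 1 (0.0635), wild-type library 2 (0.272) or mutant library 1 (0.0903), and with DESeq2 (0.114) and limma voom (0.0531). Against the other Ltbp1 peaks it did not pass (relative log2 change -1.24, edgeR diffSpliceDGE adjusted p = 0.0965). Across the gene 19 of the 25 log2 fold changes were below 0, with a median of -0.34, and 12 peaks were lower in both mutant libraries against 1 that was higher. Of all peaks 25.7% were lower in both mutant libraries. The peaks of Ltbp1 were weak, with a median of 3.39 CPM against 5.54 over all peaks. Among all peaks under 2.5 CPM the median log2 fold change was -0.32, and from 2.5 to 5 CPM it was 0.01. The part of peak strength in the lower values of Ltbp1 was not tested.

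The receptor genes carried 3 called peaks among 56, all lower in the mutant, a share of 5.36% that was near the 5.5% of all peaks. Tgfbr2, which encodes the receptor that binds the ligand first, had 2 of 11. One lay 54796 bp from the start and inside the gene (chromosome 9, 116120046 to 116120567), at 6.96 and 6.86 CPM in the wild type and 2.13 and 2.97 in the mutant. The wild-type libraries lay close together and both mutant libraries lay well below them, from 6.91 ± 0.0678 to 2.55 ± 0.592 CPM (SD, n = 2 each). The log2 fold change was -1.44 (SE 0.30, adjusted p = 0.00933 in edgeR), and the peak differed from the other peaks of the gene (relative log2 change -1.28, edgeR diffSpliceDGE adjusted p = 0.0208). The call passed with DESeq2 (0.0122) and limma voom (0.0138) and was lost without wild-type library 2 (adjusted p = 0.0564 in edgeR). A weaker Tgfbr2 peak (116156554 to 116156835) had 2.60 and 2.84 CPM against 1.28 and 0.757, a log2 fold change of -1.41 (SE 0.41, adjusted p = 0.04998 in edgeR). Against the other Tgfbr2 peaks it did not pass (relative log2 change -1.25, edgeR diffSpliceDGE adjusted p = 0.112). Another (116150758 to 116151263) had 3.90 and 2.99 CPM against 1.70 and 1.14 and missed the threshold (log2 fold change -1.27, adjusted p = 0.0557 in edgeR). Upstream of the gene a peak 2759 bp from the start had 7.19 and 7.54 CPM against 4.93 and 5.55, with no overlap and no call (log2 fold change -0.49, adjusted p = 0.279 in edgeR). The other peaks in the gene ran from -0.61 to 0.55.

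Tgfbr3, the coreceptor gene, had the most peaks of the 10 genes and 1 call. This was a narrow peak of 211 bp (chromosome 5, 107128442 to 107128653) with 2.94 and 2.48 CPM in the wild type and 1.03 and 0.883 in the mutant. Both mutant libraries had 14 to 17 reads against 48 to 52, and the log2 fold change was -1.49 (SE 0.41, adjusted p = 0.0374 in edgeR; relative to the other peaks of the gene -1.40, edgeR diffSpliceDGE adjusted p = 0.0491). None of the strong Tgfbr3 peaks was called. The strongest peak inside the gene apart from the start peak (107166304 to 107168370) had 47.9 and 40.6 against 44.3 and 42.6 CPM, a log2 fold change of -0.03. Next to it in strength, a peak at 107150716 to 107152218 had 33.4 and 27.5 against 26.2 and 20.4 CPM (log2 fold change -0.38, adjusted p = 0.206 in edgeR). Of the 41 Tgfbr3 peaks, 12 were lower and 5 were higher in both mutant libraries, where 25.7% of all peaks were lower and 25.8% higher. Tgfbr1, which encodes the kinase that phosphorylates SMAD3, had 4 peaks, none called in edgeR, DESeq2 or limma voom (1 at an unadjusted p of 0.05 in edgeR). Its lowest (chromosome 4, 47402114 to 47402537) had 4.41 and 7.64 CPM against 2.25 and 4.17 (log2 fold change -0.91, adjusted p = 0.12 in edgeR). With a library left out the log2 fold change of this peak ran from -1.42 (without mutant library 2) to -0.46 (without wild-type library 2).

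The lower calls at the weaker peaks of Ltbp1, Tgfbr2 and Tgfbr3 lay among the weakest peaks of the table. The second Tgfbr2 call was lost without wild-type library 1 (adjusted p = 0.16 in edgeR), wild-type library 2 (0.268) or mutant library 2 (0.147), and the Tgfbr3 call without wild-type library 1 (0.223), wild-type library 2 (0.147) or mutant library 2 (0.0636). Both missed the threshold with DESeq2 (adjusted p = 0.197 and 0.159) and limma voom (0.076 and 0.0699). Among all peaks with a mean under 2.5 CPM the median log2 fold change was -0.32, against 0.01 to 0.04 in the stronger classes. These 3 peaks had means of 2.47, 1.87 and 1.83 CPM. Of the 21 peaks of the 10 genes in that class 20 had a log2 fold change below 0, with a median of -0.52. With offsets that remove such a trend with the level (cyclic loess), the 3 calls had adjusted p = 0.0592, 0.157 and 0.12 in edgeR, with log2 fold changes of -1.21, -1.01 and -1.08. The stronger Tgfbr2 call, at -1.49, and both higher calls passed with these offsets.

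**Figure D3:**
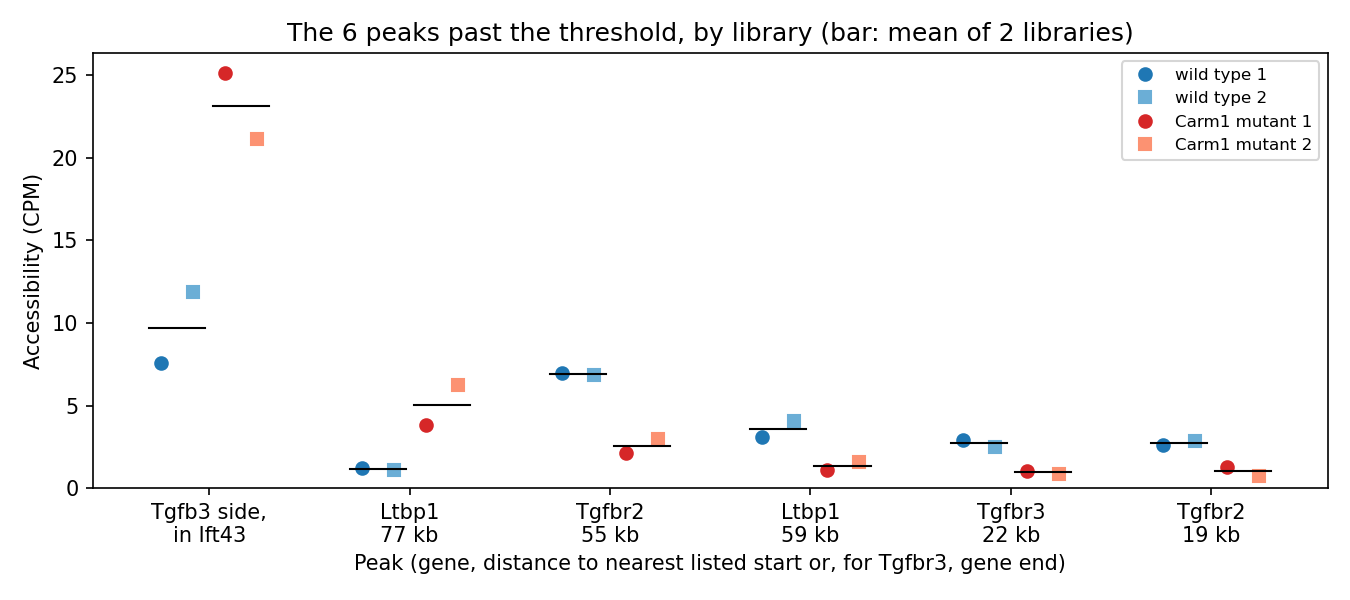
Accessibility in CPM (vertical axis) of the 6 called peaks in each of the 2 wild-type (blue) and 2 mutant (red) libraries, ordered by adjusted p; bars are the means of the 2 libraries. The genotypes do not overlap at any of the 6, and only the peak on the Tgfb3 side, within Ift43, is above 20 CPM in the mutant, at 25.1 and 21.1.

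**Figure D4:**
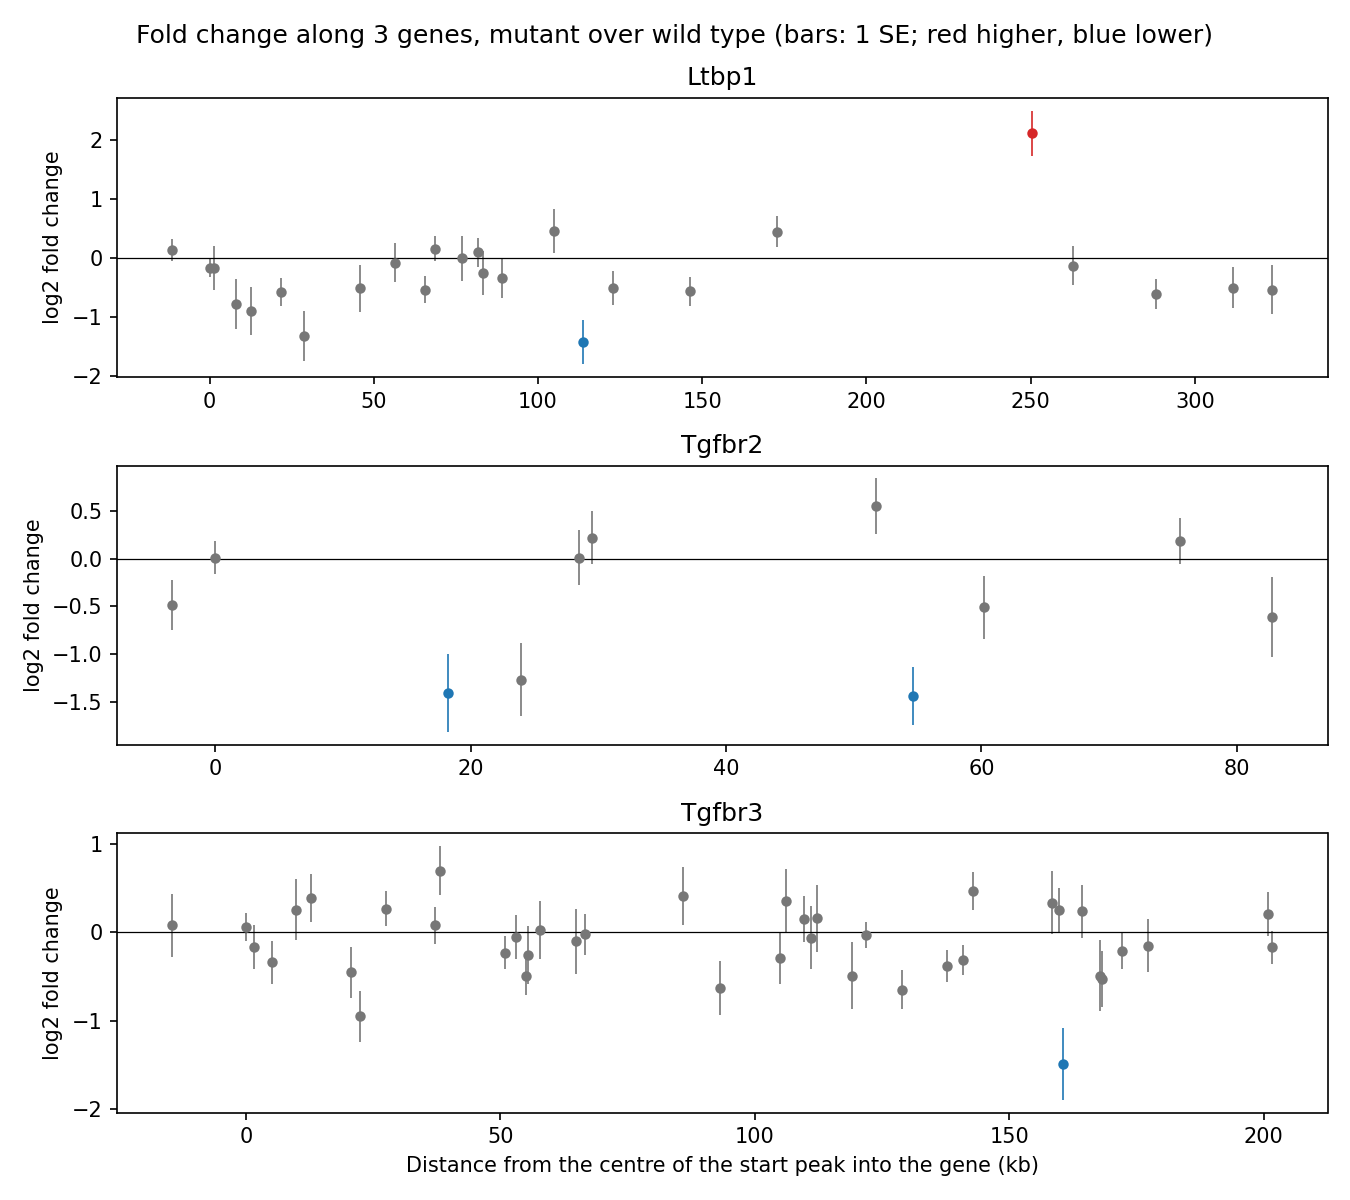
Log2 fold change, mutant over wild type (vertical axis, with 1 SE), of the peaks of Ltbp1, Tgfbr2 and Tgfbr3 against the distance in kb from the centre of the start peak into the gene (horizontal axis); red is higher, blue lower and grey not past the threshold. The start peaks, at 0 kb, lie at -0.17, 0.01 and 0.06, and called peaks stand among neighbours that did not pass.

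Markers of cell types were read from the same table, as sums over the peaks of each list. The sums for endothelial genes (10 genes, among them Pecam1, Cdh5 and Tek, with 123 peaks) were 1322 and 1098 CPM in the wild type and 1059 and 1034 in the mutant, with 1 higher and 7 lower calls (6.5% of the peaks, against 5.5% of all peaks). Those for cardiomyocyte genes were 4057 and 3742 CPM against 4661 and 4187, with 12 higher and 2 lower calls (4.96%). Fibroblast genes (10 genes, 76 peaks) had 656.1 and 683.3 against 643.1 and 737.7 CPM, with genotypes that overlapped. Mural cell genes had 563.2 and 584.6 against 622.3 and 660.0 CPM, leukocyte genes 784.4 and 734.0 against 847.0 and 836.4, and Schwann cell genes 392.2 and 414.2 against 436.1 and 447.8. Calls numbered 1 higher and 2 lower for fibroblast genes (3.95%), 5 higher and 0 lower for mural (5.75%), 2 and 0 for leukocyte (4.88%) and 3 and 0 for Schwann cell genes (15.8% of 19 peaks). The leukocyte genes Adgre1 and Cd3e had no peak. The window of the leukocyte gene Spi1 reaches into the cardiomyocyte gene Mybpc3. In each list 1 call had the same values there (log2 fold change 1.09, adjusted p = 0.0282 in edgeR). The leukocyte sums and calls are thus not separate from those of cardiomyocyte genes. The part of these sums in the lower receptor and Ltbp1 peaks was not tested. In whole tissue, fewer cells of a type and less accessibility per cell cannot be told apart.

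Smad3, Smad7 and Skil, which act inside the cell, had 55 peaks and no call in edgeR. Over all peaks 5.5% were called. At an unadjusted p of 0.05 in edgeR, 3 of the 55 passed, against 21.8% of all peaks. DESeq2 and limma voom also called 0, while 1 peak was called without mutant library 1 and 2 without mutant library 2. Smad3, the receptor-activated effector, carried 33 peaks over 111.2 kb, of which 21 had a log2 fold change above 0, with a median of 0.10. The Smad3 peak with the smallest p lay near the far end of the gene (chromosome 9, 63657082 to 63657765), at 6.28 and 5.78 CPM in the wild type and 10.04 and 10.7 in the mutant. The groups were well apart, and the adjusted p missed the threshold (log2 fold change 0.78, SE 0.24, adjusted p = 0.0601 in edgeR). Smad7, the inhibitory SMAD gene, had 26.3 peaks per 100 kb, the densest of the 10 windows, with log2 fold changes from -0.37 to 0.27. None of its 18 peaks passed in edgeR, DESeq2 or limma voom, or at an unadjusted p of 0.05 in edgeR, which 21.8% of all peaks passed. In 1 of the 18 the genotypes did not overlap, against 51.5% of all peaks. Its inner peak at 75376988 to 75378168 on chromosome 18 had 22.3 and 18.2 CPM against 11.7 and 19.8, and so varied more within the mutant than between the genotypes (adjusted p = 0.35 in edgeR). Without mutant library 2 that peak had a log2 fold change of -0.79, and without mutant library 1 it had -0.04. Skil, the SMAD corepressor gene, had 4 peaks, and the one 15300 bp before its lower-coordinate end had 2.72 and 2.84 CPM against 3.83 and 5.05 (log2 fold change 0.67, adjusted p = 0.223 in edgeR).

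The window was also read as a whole, with the counts of all its peaks summed for each of 16983 protein-coding genes and tested in 1 edgeR fit. None of the 10 genes passed, while 2.65% of all genes did. DESeq2 and limma voom also called 0, and at an unadjusted p of 0.05 in edgeR 1 of the 10 passed, against 16.9% of all genes. That gene was Ltbp1, with 114.1 and 113.5 CPM in the wild type and 98.4 and 97.3 in the mutant. The libraries of a genotype lay close together, and the log2 fold change was -0.22 (SE 0.08, 95% interval -0.39 to -0.05, adjusted p = 0.164 in edgeR). Tgfbr2 had 48.5 and 47.4 against 40.3 and 43.8 CPM (log2 fold change -0.19, adjusted p = 0.369 in edgeR). Tgfbr3 had 278.0 and 263.3 against 250.8 and 245.8 CPM (log2 fold change -0.12, adjusted p = 0.454 in edgeR). Of the 10 genes, Tgfb2 alone had both mutant values above both wild-type values, at 60.1 and 64.4 against 64.9 and 73.0 CPM (log2 fold change 0.15, adjusted p = 0.484 in edgeR). Smad3 had 169.8 and 173.4 against 172.3 and 183.1 CPM, and Smad7 185.0 and 166.1 against 164.7 and 165.9. The 95% intervals of the 10 genes all lay between -0.41 and 0.36. Both mutant values lay below both wild-type values at Ltbp1, Tgfbr1, Tgfbr2, Tgfbr3 and Smad7; over all genes the genotypes were apart in 47.5%. Windows of neighbouring genes share peaks and are not independent.

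**Figure D5:**
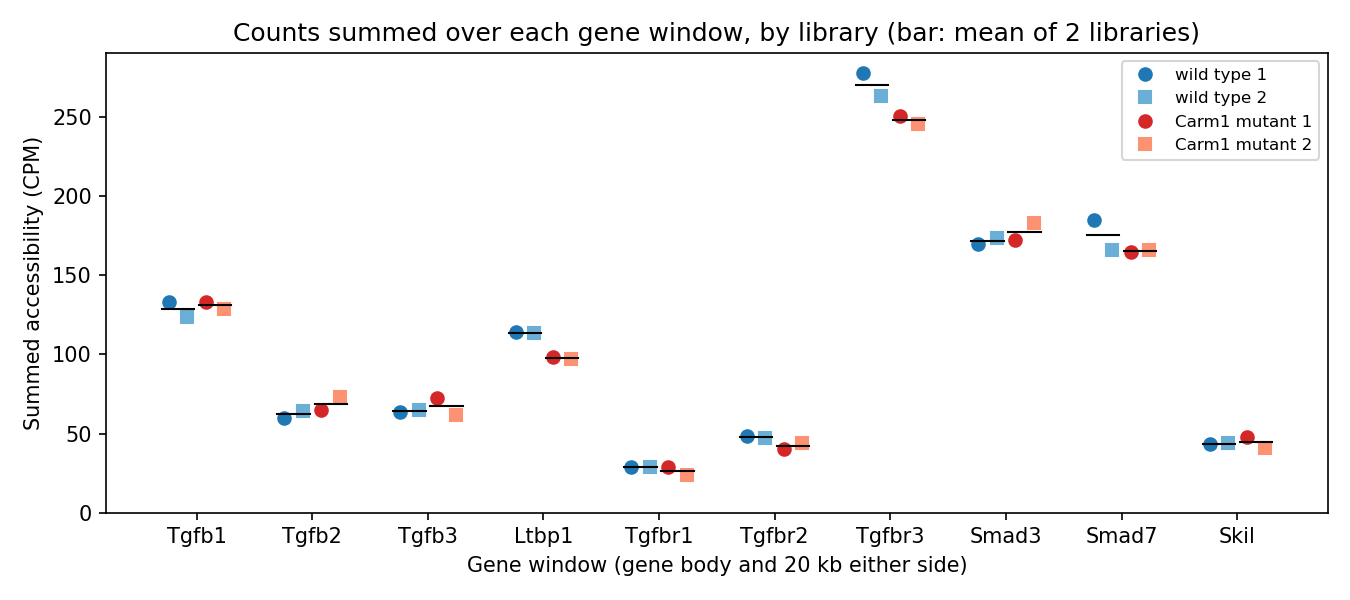
Summed accessibility in CPM (vertical axis) over each gene's window, the gene and 20 kb either side, in the 2 wild-type (blue) and 2 mutant (red) libraries; bars are the means of the 2 libraries. The mutant pair lies below the wild-type pair at Ltbp1 (98.4 and 97.3 against 114.1 and 113.5 CPM), a difference that did not pass over all genes.

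Other genes of the pathway, from 4 lists, were read with the same window and set against the 5.5% of all peaks called. Genes of ligand storage, release and coreceptors (12 genes, 144 peaks) had 8 higher and 2 lower calls, 6.94% of their peaks, with a median log2 fold change of -0.02. Of the 8, 4 lay in Itgb6, which encodes a subunit of an integrin that releases TGF-beta from its latent complex, 2 in Ltbp3, 1 in Ltbp2 and 1 beside Bgn. The Itgb6 peak with the smallest p (chromosome 2, 60697478 to 60698764) had 22.9 and 23.1 CPM in the wild type and 43.4 and 35.3 in the mutant. Both mutant libraries were higher (log2 fold change 0.78, SE 0.16, adjusted p = 0.00904 in edgeR), and the call was lost without wild-type library 1 (0.0901) or wild-type library 2 (0.105). Ltbp4, a relative of Ltbp1, had a lower peak (chromosome 7, 27322100 to 27322734), with 5.77 and 3.56 against 1.89 and 1.58 CPM (log2 fold change -1.42, adjusted p = 0.0258 in edgeR, 0.279 without wild-type library 1). Fbn1, the fibrillin gene, held the other lower peak. All or nearly all calls of this list were lost when either wild-type library was left out. The share called over all peaks fell as well.

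The other SMADs and their regulators (17 genes, 170 peaks) had 6 higher and 3 lower calls, 5.29% of their peaks. The call with the smallest p lay 19595 bp beyond Ski, a corepressor related to Skil, and inside Morn1 (chromosome 4, 155133586 to 155134480). It had 5.26 and 5.42 CPM in the wild type and 14.1 and 14.8 in the mutant (log2 fold change 1.44, SE 0.23, adjusted p = 0.0017 in edgeR). Smurf1, which encodes a ubiquitin ligase that SMAD7 brings to the receptor, had 2 higher and 2 lower calls. Its lowest p belonged to a lower peak (chromosome 5, 144891287 to 144891646), at 6.05 and 4.34 CPM against 1.46 and 1.20 (log2 fold change -1.96, SE 0.36, adjusted p = 0.00426 in edgeR). Smad4, the common partner of SMAD3, had 1 lower peak, and Smad6, the other inhibitory SMAD gene, 1 higher peak. Leaving out a wild-type library lowered the count of this list and leaving out a mutant library raised it, as over all peaks.

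The related bone morphogenetic protein and activin branch (24 genes, 23 with a peak, 186 peaks) had 4 higher and 6 lower calls, 5.38% of its peaks. Of the 6 lower peaks, 4 lay in Acvr1, which encodes a type I receptor of that branch. The one with the smallest p (chromosome 2, 58489039 to 58489887) had 29.8 and 30.1 CPM in the wild type and 13.4 and 14.1 in the mutant, a log2 fold change of -1.12 (SE 0.17, adjusted p = 0.00147 in edgeR). Over its whole window Acvr1 had 122.6 and 119.1 CPM against 82.9 and 90.1, and this sum passed over all genes (log2 fold change -0.48, SE 0.08, adjusted p = 0.00867 in edgeR). A peak 19430 bp before Fstl1, a follistatin-like gene, had 7.81 and 5.88 CPM against 16.3 and 14.5 (log2 fold change 1.17, SE 0.23, adjusted p = 0.00624 in edgeR, 0.106 without wild-type library 2). The list's count lay between 3 (without wild-type library 2) and 17 (without mutant library 2), with 5 without wild-type library 1 and 16 without mutant library 1.

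Matrix and fibrosis genes that TGF-beta is known to induce (17 genes, 102 peaks) had 7 higher and 0 lower calls, 6.86% of their peaks, with a median log2 fold change of 0.19. DESeq2 and limma voom also called 0 lower, and 3 of the 32 peaks below 0 had an unadjusted p under 0.05 in edgeR. Without mutant library 2, 3 lower peaks were called. Ccn2, which encodes connective tissue growth factor, had 3 of the 7. Its strongest call by p lay 107 bp beyond the gene (chromosome 10, 24598790 to 24600311), at 9.34 and 7.38 CPM in the wild type and 19.5 and 21.7 in the mutant (log2 fold change 1.30, SE 0.21, adjusted p = 0.00169 in edgeR). The window of Ccn2 had 68.7 and 76.5 CPM against 94.3 and 115.9 (log2 fold change 0.53, SE 0.10, adjusted p = 0.0147 in edgeR). Among the other calls were peaks at Timp1 where it overlaps Syn1, beside Col1a1, and beside Comp in Crtc1. Col1a1, Col1a2 and Postn were also in the fibroblast marker list, and Acta2 in the mural list. The call beside Col1a1 was the higher call of the fibroblast list, so these lists are not separate. Dcn of the storage and release list was a fibroblast marker as well. The list's count was 3 without wild-type library 1, 2 without wild-type library 2, 12 without mutant library 1 and 11 (8 higher, 3 lower) without mutant library 2. Itgb6, at 91.9 and 90.6 CPM against 125.4 and 123.5, also had a window sum that passed (log2 fold change 0.45, SE 0.08, adjusted p = 0.0103 in edgeR, 0.0635 without wild-type library 2).

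The 20 kb limit of the window cut between 2 peaks of like size. The last peak inside it, 19391 bp from Smad7, had 3.79 and 3.72 CPM against 2.92 and 3.85. The first outside it, 20052 bp from Tgfbr3, had 4.70 and 4.39 against 5.54 and 5.81.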

How the data were processed

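ATAC-seq was run on hearts of mice at postnatal day 14, with 2 wild-type and 2 Carm1 mutant libraries, called neonatal in the design text. The authors deposited 1 table of raw read counts per peak. The submitters' processing notes name FastQC, Bowtie2 and mm10, with no versions. Not given in the sources used here were the peak caller, the read filters, the treatment of duplicates and any shift of reads for the transposase, all of which bear on what was counted. Each column matched the title of 1 sample.

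Peaks were tied to genes with the RefSeq gene table of GRCm38.p6, the assembly of mm10. All 87948 peaks were fitted together with edgeR 4.0.16 in R 4.3.3 (TMM, filterByExpr, which removed 0 peaks, and the quasi-likelihood test with genotype as the only term), with Benjamini-Hochberg adjustment over all peaks and a threshold of 0.05. The fit had 2 residual degrees of freedom per peak and a common dispersion of 0.166 as a biological coefficient of variation. CPM values use TMM-scaled library sizes. Standard errors were derived from the test statistic, and 95% intervals from it as well. Summed counts per gene window were fitted likewise. The comparison of a peak with the other peaks of its gene (edgeR diffSpliceDGE) was added after seeing the data. DESeq2 1.42.0 and limma 3.58.1 (voom) were alternatives, with other scalings, filters, windows and each library left out. The fits were tested on simulated data, 2 libraries against 2. Changes of 1.5, 2 and 3 times were given to 67, 67 and 66 of the 87948 peaks. They were called in 3%, 37.3% and 71.2% of the changed peaks. The comparison within a gene called 0%, 22.4% and 50% of them. False calls were 3 of 77 and 4 of 52. A peak that did not pass may thus still differ. Far more peaks (4839) were called in the data, so the same adjusted p stood for a larger unadjusted p there. The shares called in the simulation therefore need not hold for the data. Promoters were read with Python 3.11.15.

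The peaks described singly are each gene's start peak, its peak with the smallest p and its called peaks, and for the other lists the call with the smallest p in each direction; the other peaks given with values were chosen after their values were seen. The members, lists and tests were chosen with earlier results of these data known. A called peak of the matrix list is not reported singly here.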

Additional observations from a re-analysis of the deposited data

How the results depend on the processing

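Of the alternatives, those that moved the 6 calls among the 170 peaks by more than 1.5 times were DESeq2 (3), limma voom (3), a replicate block (15), a 50 kb window (11 of 224 peaks), a threshold of 0.1 (14) and each single library left out (2 to 13). Leaving out a library leaves 1 of its genotype, whose spread is then assumed to be that of the other genotype. RLE size factors (6), total counts (8), cyclic loess (4), no filter (6), a mean of at least 2 CPM (4 of 164), gene bodies alone (5 of 138), a 5 kb window (5 of 149), peaks nearest to the gene (5 of 153) and, added after seeing the data, peaks overlapping no other gene (5 of 156) stayed within 1.5 times. A like count can hold other peaks: cyclic loess lost 3 of the 6 calls, and its 4 held a lower peak not among the 6. Of all peaks, 5.6% were called with RLE, 5.67% with total counts, 6.2% with cyclic loess and 4.92% with the 2 CPM filter. The median log2 fold change of -0.05 was -0.08 with total counts, -0.02 with the 50 kb window and -0.05 to -0.02 with a library left out. The count of genes called on summed counts was 0 under all 9 of its alternatives. Whether replicate numbers pair the libraries could not be told from the correlation of deviations (0.108, with only 2 pairs). With the block 15 peaks were called (4 higher, 11 lower), against 11.06% of all peaks. The lists of SMADs, bone morphogenetic protein and matrix genes then had 19, 16 and 11 (2 of the matrix calls lower). DESeq2 called 4 peaks of the storage and release list, 5 of the SMAD list and 4 of the matrix list; with a library left out the 4 lists had 0 to 13, 4 to 16, 3 to 17 and 2 to 12. With total counts the start peaks near 0 changed sign (Tgfb3 -0.01, Tgfbr1 -0.02, Tgfbr2 -0.02, Smad7 -0.01, Skil -0.01). With a library left out the start peaks ranged as follows, none past the threshold. Tgfb1 ran from -0.0005 to 0.24, Tgfb2 from -0.05 to 0.03, Tgfb3 from -0.13 to 0.17, Ltbp1 from -0.32 to -0.03, Tgfbr1 from -0.24 to 0.24 and Tgfbr2 from -0.10 to 0.12. Tgfbr3 ran from -0.16 to 0.26, Smad3 from -0.20 to 0.04, Smad7 from -0.18 to 0.21 and Skil from -0.19 to 0.21. The cause was not tested for any of these. The median standard error of the log2 fold change was 0.40 for peaks of the 10 genes with a mean under 2.5 CPM and 0.16 for those of 20 CPM or more.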

Other observations

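Beyond the 20 kb window, 5 further peaks within 50 kb of the genes were called, 4 higher and 1 lower in the mutant. On the Tgfb3 side, a second peak inside Ift43 (chromosome 12, 86103762 to 86105541, 24721 bp from Tgfb3) had 18.2 and 20.6 CPM in the wild type and 35.8 and 34.0 in the mutant. Its log2 fold change was 0.85 (SE 0.16, adjusted p = 0.00582 in edgeR, 0.0961 without wild-type library 1), in the same direction as the called Ift43 peak nearer to Tgfb3. A peak 25470 bp from Smad7 (chromosome 18, 75421405 to 75421904) had 2.83 and 3.92 against 10.04 and 7.70 CPM, or 1.39 on the log2 scale (SE 0.28, adjusted p = 0.00762 in edgeR, 0.0765 without wild-type library 1). The nearest gene to it is Ctif.

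Beside Tgfb2 there were 2 such peaks, both higher. The one 36682 bp from the gene (chromosome 1, 186585711 to 186586105) had 1.75 and 1.60 against 4.81 and 4.73 CPM (log2 fold change 1.51, adjusted p = 0.014 in edgeR, 0.0591 without wild-type library 1 and 0.11 without wild-type library 2). The one 40688 bp away (186580963 to 186582099) had 14.5 and 16.6 against 23.5 and 24.4 CPM (log2 fold change 0.62, adjusted p = 0.0459 in edgeR), and it was lost without wild-type library 1 (0.337) or 2 (0.188), with DESeq2 (0.0785) and with limma voom (0.0555). The lower peak lay 37785 bp from Tgfbr2 (chromosome 9, 116213148 to 116213656), at 15.2 and 12.5 against 7.85 and 6.37 CPM (log2 fold change -0.96, SE 0.23, adjusted p = 0.0195 in edgeR). That call was lost without wild-type library 1 (0.177) or 2 (0.0608). Which gene, if any, these distant peaks act on was not tested.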
